A study of Mus musculus with 12 samples.

Results

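The solute carriers described here are 156 of the 6429 genes for which Pol II (RNA polymerase II) ChIP-seq values were deposited from mouse duodenal epithelium. They are the genes in both tables whose symbol starts with Slc and a digit, without 6 sugar, nucleoside and iron transporters of the tables that were set aside (Slc5a1, Slc2a2, Slc2a5, Slc28a2, Slc11a2 and Slc40a1). Each gene was placed in a class by what its family is known to carry, or on its own where the gene was set apart from its family. Of the 156 genes, 18 carry amino acids or peptides, 26 organic ions and 17 metals, and 23 are mitochondrial carriers of the Slc25 family. A further 13 carry sugars, 16 inorganic ions, 19 nucleosides or nucleotide sugars, and 19 vitamins, lipids or other solutes. The remaining 5 match the name rule without being carriers: the scaffold gene Slc9a3r1, the opposite-strand genes Slc6a19os, Slc13a2os and Slc7a6os, and the pseudogene Slc2a4rg-ps.

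The labels list 3 Pol II libraries from villus and 3 from crypt of wild-type (WT) mice, and 3 from villus of mice whose label is Hnf4 DKO, with Hnf4a and Hnf4g, genes of nuclear receptor transcription factors, both targeted, with 1 input library for each group. Knockout mice were injected with tamoxifen at 50 mg/kg on each of 2 days and killed 1 day later, and WT mice received ethanol in corn oil. Tissue from mutants spent 25 minutes in EDTA and tissue from WT mice 35 minutes, and a 70 µm filter kept villi and let crypts through. Genotype, tamoxifen and EDTA time therefore cannot be told apart. The sources used here do not name the Cre driver, the mouse strain or the animals' ages, and call the WT mice littermate controls. They do not say whether each library came from its own animal, and the p-values measure the spread between the libraries of the authors' fit, which may be technical.

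Solute carriers are membrane proteins that move small molecules by coupling them to a sodium, proton or other gradient, or by exchange or facilitated diffusion. In the small intestine the absorptive enterocytes of the villus use apical carriers to take up amino acids, peptides, sugars and minerals from the lumen, and basolateral carriers to pass them to the blood. Crypts hold the stem and dividing cells from which the villus epithelium is renewed, and HNF4 factors are known as regulators of enterocyte genes. Pol II occupancy reports on transcription of a gene and not on its protein or its transport activity.

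All fold changes, standard errors (printed after ±, on the log2 scale) and adjusted p-values below are those of the authors' deposited DESeq2 tables, and the labels list 3 libraries per group. In both tables a positive value stands for more signal in WT villus, as the tables' names put it first. A gene was called when its DESeq2 adjusted p was under 0.05. The mean signal of the solute carrier genes, in counts divided by size factors and averaged over all libraries, ran from 43.9 to 1180 with a median of 192. Values per library were not matched to samples, so each gene's mean in the 3 groups was rebuilt from its mean signal and its fold changes, with groups of equal size and fold changes without shrinkage assumed. These rebuilt means carry no error of their own and are given to show levels within a gene. The window that was counted is not stated, so the level of one gene is not set against that of another.

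Neither targeted gene had less Pol II signal in labelled-DKO villus. Between the genotypes the authors' deposited table gives Hnf4a a value of -0.54 ± 0.14 and Hnf4g one of -1.45 ± 0.22, so both had more signal in labelled-DKO villus. Whether the counted window covers the deleted part of either gene is not given in the sources used here. Of 15 enterocyte markers 13 were in the tables, and all 13 were called higher in villus over crypt and in WT over labelled-DKO villus, with medians of 1.45 and 2.44. Of 10 crypt stem cell markers 3 were in the tables, of which 2 (Axin2 and Sox9) were called higher in crypt and 1 (Rnf43) higher in labelled-DKO villus. The proliferation gene Pcna, the single gene of its list of 10 in the tables, was higher in crypt at -0.95 and higher in labelled-DKO villus at -0.62. Of 8 secretory cell markers 6 were in the tables, with 2 called higher in villus and 2 in crypt, and 2 called higher in labelled-DKO villus. Of 7 immune markers Cd74 and Cd52 were in the tables, and Cd74 was called higher in villus and in WT villus. None of the 6 mesenchyme markers was in the tables. Fewer cells of a type and less Pol II per cell cannot be told apart in these bulk samples, and the part of cell composition in the results below was not tested.

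Between villus and crypt, solute carrier genes were called higher in villus more often than the genes of the tables as a whole. Of the 156 genes, 56 (35.9%) were higher in villus in the authors' deposited table, against 18.6% of all genes, and 10 (6.41%) were higher in crypt, against 18.8% of all genes. The median log2 fold change was 0.18, against -0.04 for all genes. Of the genes higher in villus 23 were beyond 1 on the log2 scale. No gene higher in crypt was, and the lowest value was that of Slc35b2 at -0.76 ± 0.17. Without the 5 genes that are no carriers, 53 of 151 genes (35.1%) were higher in villus and 10 (6.62%) in crypt.

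Between the genotypes more of the solute carrier genes were called. Of the 156 genes, 72 (46.2%) were higher in WT villus in the authors' deposited table, where 22.4% of all genes were. A further 27 (17.3%) were higher in the labelled-DKO libraries, where 29.5% of all genes were. The balance over all genes moved with the scaling: centring on the median turned 1443 genes with more signal in WT villus and 1895 with less into 1710 and 1422. For the solute carriers centring gave 74 and 22. Their median between the genotypes was 0.22, against -0.08 for all genes. A change beyond 1 was found for 36 of the genes higher in WT villus and for 3 of those higher in labelled-DKO villus, namely Slc6a6, Slc35c1 and Slc35b2. Without the 5 genes that are no carriers, 69 of 151 genes (45.7%) were higher in WT villus and 26 (17.2%) in labelled-DKO villus.

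**Figure D1:**
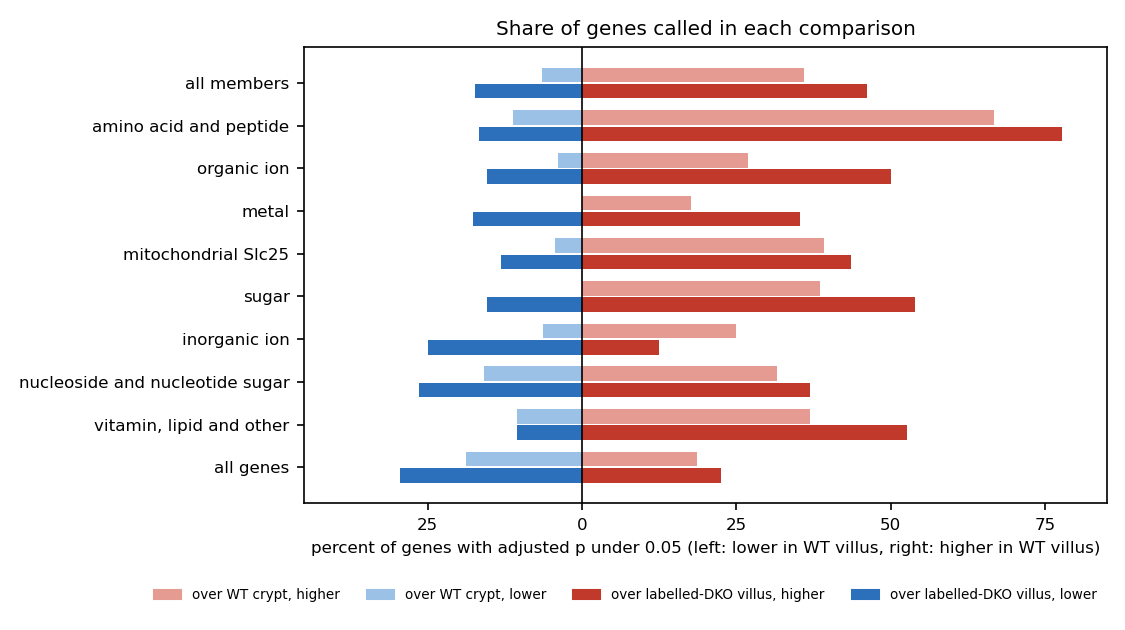
Share of genes called (adjusted p under 0.05 in the authors' deposited tables) for all 156 members, for 8 substrate classes and for all 6429 genes. Bars to the right are genes higher in WT villus and bars to the left genes lower in WT villus, pale against crypt and dark against labelled-DKO villus. Amino acid and peptide transporters have the longest bars to the right, at 66.7% and 77.8%, beside 18.6% and 22.4% for all genes.

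The counts of each class below stand beside all-gene shares of 18.6% higher in villus, 18.8% in crypt, 22.4% in WT villus and 29.5% in labelled-DKO villus. Amino acid and peptide transporters had class medians of 0.66 for villus over crypt and 1.03 for WT over labelled-DKO villus. Sugar transporters had 0.31 and 0.45. The medians were 0.08 and 0.18 for organic ion, -0.08 and 0.18 for metal, and 0.23 and 0.08 for mitochondrial carriers. Among genes with a mean signal of at least 100 the organic ion and mitochondrial medians between the genotypes were 0.40 and 0.49. Vitamin, lipid and other carriers had 0.12 and 0.35, nucleoside and nucleotide sugar carriers 0.02 and 0.04, and inorganic ion carriers 0.09 and -0.15. In the metal class a few genes lay far above a group of others near 0, so its median says little of its extremes. These differences between classes are descriptions and were not tested.

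**Figure D2:**
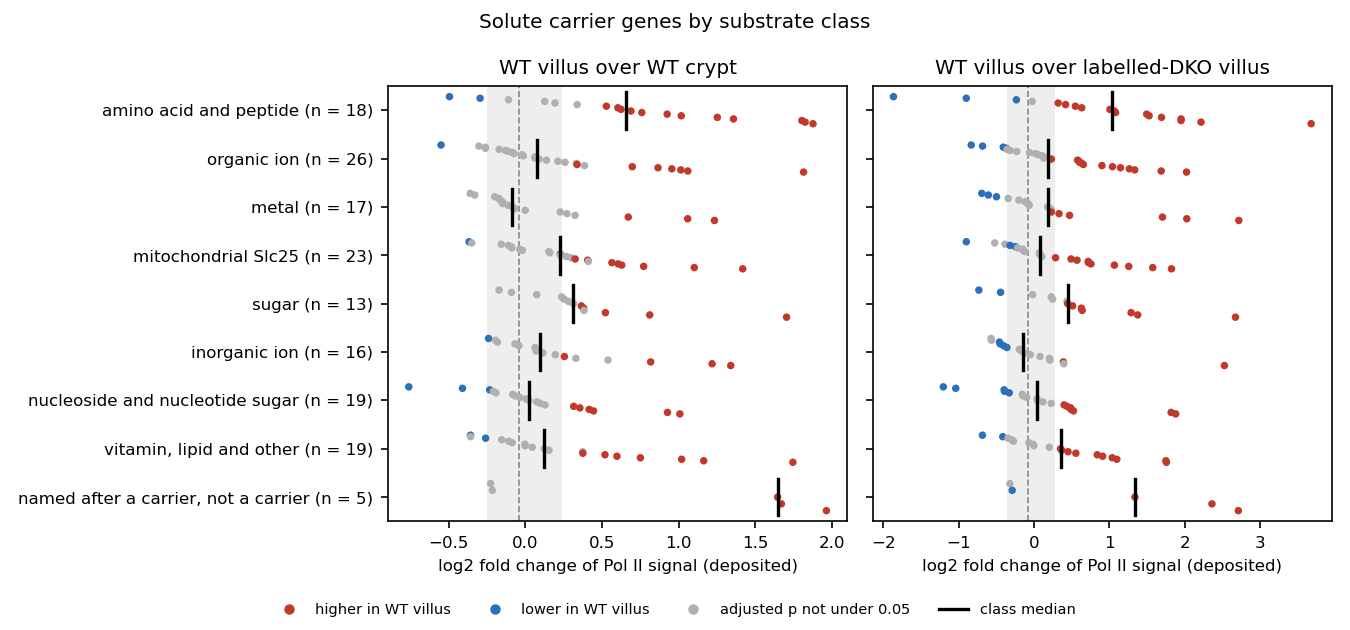
Deposited log2 fold change of each of the 156 genes by class, for WT villus over WT crypt (left) and WT villus over labelled-DKO villus (right). Each point is a gene, red where higher and blue where lower in WT villus with an adjusted p under 0.05, and grey otherwise; the black bar is the class median, and the grey band and dashed line are the middle range (quartiles) and median of all 6429 genes. The amino acid and peptide median and the sugar median lie right of the grey band in both panels. So does the median of the 5 genes that are no carriers.

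Among amino acid and peptide transporters 12 of 18 genes were called higher in villus and 2 higher in crypt in the authors' deposited table, and 14 were higher in WT villus and 3 in labelled-DKO villus. Slc6a19, the main carrier of neutral amino acids in the brush border, had rebuilt mean signals of 211 in crypt, 775 in WT villus and 60.7 in labelled-DKO villus. Its log2 fold changes in the authors' deposited tables were 1.88 ± 0.19 over crypt (adjusted p 5.85e-21) and 3.68 ± 0.20 over labelled-DKO villus (adjusted p 1.95e-76). The latter is a 12.8-fold lower signal in labelled-DKO villus and the largest difference of any of the 156 genes. Slc6a19 lies on chromosome 13 from 73817193 to 73838228 on the minus strand in the authors' mm9 coordinates. Its antisense gene Slc6a19os had 1.67 ± 0.17 and 2.71 ± 0.17. ChIP-seq reads do not show which strand was transcribed, so reads of the pair cannot be told apart.

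Slc15a1, the proton-coupled carrier of di- and tripeptides, had rebuilt means of 510 in crypt, 1807 in WT villus and 628 in labelled-DKO villus. Its deposited log2 fold changes were 1.83 ± 0.19 and 1.53 ± 0.18, so its signal was 3.54-fold higher in villus than in crypt and 2.88-fold higher in WT villus between the genotypes. Slc36a1, a proton-coupled carrier of small neutral amino acids, had 242, 577 and 149, with differences of 1.25 ± 0.12 and 1.95 ± 0.12. Slc7a9 and Slc3a1 encode the light and heavy subunits of the apical exchanger of cystine and dibasic amino acids. The light subunit gene Slc7a9 differed by 0.92 ± 0.19 and 1.69 ± 0.20 in the authors' deposited tables. The heavy subunit gene Slc3a1 differed by 0.62 ± 0.16 and 0.42 ± 0.16, the latter with an adjusted p of 0.0173, and its span overlaps Prepl. The 2 subunit genes thus had unlike sizes of change between the genotypes, and that difference was not tested. Slc7a15 and Slc6a18, further amino acid carriers, were also higher in WT villus in both tables, Slc7a15 by 1.80 ± 0.19 and 1.95 ± 0.19 and Slc6a18 by 0.69 ± 0.16 and 1.06 ± 0.16.

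Slc7a7 and Slc7a8 encode light subunits that pair with the heavy subunit of Slc3a2, and they export cationic and neutral amino acids to the blood. Slc7a7 differed by 0.60 ± 0.07 and 1.08 ± 0.07, Slc7a8 by 0.53 ± 0.09 and 1.49 ± 0.09, and Slc3a2 by 0.76 ± 0.11 and 0.55 ± 0.11. The span of Slc7a7 overlaps Oxa1l. Slc43a2, a facilitative carrier of large neutral amino acids, had rebuilt means of 567 in crypt, 1453 in WT villus and 724 in labelled-DKO villus, with differences of 1.36 ± 0.27 and 1.01 ± 0.27. Slc16a10, which carries aromatic amino acids, was not called between villus and crypt, at 0.34 ± 0.17 (adjusted p 0.111), and was higher in WT villus between the genotypes at 0.63 ± 0.17.

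Slc6a6, the taurine transporter, had rebuilt means of 583 in crypt, 636 in WT villus and 2319 in labelled-DKO villus. It was not called between villus and crypt, at 0.13 ± 0.28 (adjusted p 0.763), and its difference between the genotypes was -1.87 ± 0.28 (adjusted p 2.64e-10), a 3.64-fold higher signal in labelled-DKO villus and the largest increase there of the 156 genes. Slc38a2, a sodium-coupled carrier of neutral amino acids known to respond to amino acid shortage, had more signal in crypt, at -0.50 ± 0.17, and in labelled-DKO villus, at -0.90 ± 0.17. Slc15a4, an endolysosomal carrier of histidine and peptides, differed by -0.30 ± 0.09 and -0.24 ± 0.08, and its call between genotypes was lost after centring (adjusted p 0.118). Slc38a10 was called in neither table, at -0.11 ± 0.11 and -0.03 ± 0.11.

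**Figure D3:**
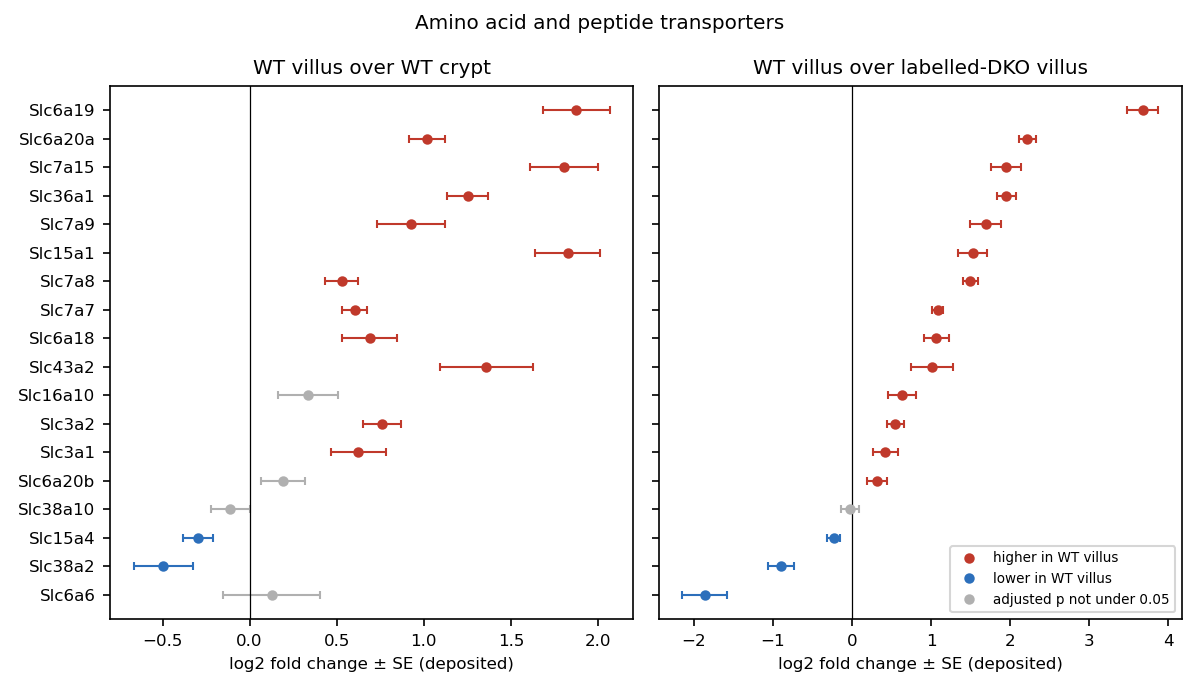
Deposited log2 fold change ± SE of the 18 amino acid and peptide transporter genes, for WT villus over WT crypt (left) and over labelled-DKO villus (right), ordered by the latter; red and blue mark an adjusted p under 0.05. Slc6a19 stands at 3.68 on the right, and Slc6a6, with 0.13 on the left, stands at -1.87 on the right.

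Slc6a20a and Slc6a20b, close relatives in the family of imino acid carriers, lie 4.37 kb apart on the minus strand of chromosome 9. In the authors' deposited tables Slc6a20a differed by 1.02 ± 0.10 and 2.21 ± 0.11, a 4.64-fold lower signal in labelled-DKO villus. Slc6a20b differed by 0.19 ± 0.13 (adjusted p 0.235) and 0.32 ± 0.13 (adjusted p 0.0250). The rebuilt mean of Slc6a20a went from 971 in WT villus to 209 in labelled-DKO villus, and that of Slc6a20b from 296 to 237. Slc6a18 and Slc6a19 lie 1.72 kb apart on chromosome 13, and their differences between the genotypes were 1.06 and 3.68. The differences between these neighbours were not tested.

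Promoter sequences of RefSeq in the GRCm38.p6 build (250 bases before to 50 after the start) were found for 121 of the 156 genes. These are shown to set the response of named genes beside the letters around their start. The HNF4 motif spelled CAAAGTCCA was searched on both strands. It was found in the promoter of 1 of the 121 genes (0.826%), against 0.814% of the 5161 genes of the tables that had a promoter sequence and 0.555% of all 27025 genes of the reference table. That gene is Slc3a1, whose change between the genotypes was among the smaller ones of its class. The 7-letter core AAAGTCC, searched after the data were seen, occurred in 8 of the 121 genes (6.61%) against 5.39% of the genes of the tables. It occurred in 3 of 57 genes higher in WT villus, 2 of 23 higher in labelled-DKO villus and 3 of 41 not called. A match is a run of letters in this window and no evidence of binding, and a missing match says only that these letters are absent there. Slc6a19 has 2 starts in the authors' windows, and the sequence printed for it covers a single window. Below, capitals mark the motif in Slc3a1, at chr17:85028097-85028396 on the plus strand, while Slc6a19 (chr13:73692587-73692886, minus strand), Slc6a20a (chr9:123678783-123679082, minus strand) and Slc6a20b (chr9:123632489-123632788, minus strand) hold neither spelling.
Slc3a1 promoter: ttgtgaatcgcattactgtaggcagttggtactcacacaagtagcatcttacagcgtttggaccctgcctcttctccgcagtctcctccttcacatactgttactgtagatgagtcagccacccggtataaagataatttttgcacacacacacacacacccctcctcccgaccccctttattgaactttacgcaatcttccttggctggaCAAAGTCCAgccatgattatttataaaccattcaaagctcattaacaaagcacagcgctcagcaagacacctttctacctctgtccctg
Slc6a19 promoter: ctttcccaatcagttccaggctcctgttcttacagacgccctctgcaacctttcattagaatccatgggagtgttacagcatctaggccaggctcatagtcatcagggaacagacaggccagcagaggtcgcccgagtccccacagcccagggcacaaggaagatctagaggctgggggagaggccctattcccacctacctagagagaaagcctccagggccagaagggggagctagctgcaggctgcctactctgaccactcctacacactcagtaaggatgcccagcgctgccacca
Slc6a20a promoter: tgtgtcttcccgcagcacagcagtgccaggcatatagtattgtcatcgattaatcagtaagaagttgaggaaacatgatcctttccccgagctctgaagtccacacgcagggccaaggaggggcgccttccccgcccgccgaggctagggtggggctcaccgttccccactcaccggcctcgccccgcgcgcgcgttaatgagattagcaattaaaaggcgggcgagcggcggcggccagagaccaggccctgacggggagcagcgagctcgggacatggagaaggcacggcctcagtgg
Slc6a20b promoter: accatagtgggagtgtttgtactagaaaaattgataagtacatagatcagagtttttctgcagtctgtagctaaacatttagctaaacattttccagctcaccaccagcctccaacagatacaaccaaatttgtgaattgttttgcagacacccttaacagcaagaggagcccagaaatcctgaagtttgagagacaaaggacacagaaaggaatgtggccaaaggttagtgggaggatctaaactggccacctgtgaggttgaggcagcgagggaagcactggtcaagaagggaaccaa
The promoter of Slc6a20a was 62.3% G and C and that of its neighbour Slc6a20b 44.0%, against a median of 60.3% over the promoters of the solute carrier genes and 52.7% over the 32851 promoters of the reference table.

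Among organic ion transporters 7 of 26 genes (26.9%) were called higher in villus and 1 (3.85%) in crypt, and 13 (50%) were higher in WT villus and 4 in labelled-DKO villus in the authors' deposited tables. Slc51a and Slc51b encode the subunits of the basolateral exporter of bile acids and steroids. Slc51a had rebuilt means of 154 in crypt, 312 in WT villus and 96.9 in labelled-DKO villus. Slc51b had 113, 235 and 58.0. Their differences over crypt were alike, at 1.01 ± 0.09 and 1.06 ± 0.11, and over labelled-DKO villus they were 1.69 ± 0.09 for Slc51a and 2.02 ± 0.11 for Slc51b. These are 3.22-fold and 4.06-fold lower signals in labelled-DKO villus. Slc51a lies on chromosome 16 and Slc51b on chromosome 9, where it overlaps Rasl12.

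Of the 9 genes of the Slc16 family, which holds the monocarboxylate carriers, 2 (22.2%) were called higher in villus, a share near the 18.6% of all genes. In crypt 1 (11.1%) was higher, beside 18.8% of all genes. Between the genotypes 4 (44.4%) were higher in WT villus and 1 (11.1%) in labelled-DKO villus, beside 22.4% and 29.5% of all genes. Slc13a2, an apical carrier of citrate and other dicarboxylates, had rebuilt means of 234 in crypt, 822 in WT villus and 342 in labelled-DKO villus, with deposited differences of 1.82 ± 0.23 and 1.26 ± 0.23. Its overlapping antisense gene Slc13a2os had nearly the same values, 1.96 ± 0.23 and 1.34 ± 0.23, and reads of this pair cannot be told apart either. Slc5a12, a sodium-coupled lactate carrier, differed by 0.87 ± 0.16 and 1.33 ± 0.16, and the monocarboxylate family gene Slc16a5 by 0.96 ± 0.13 and 1.15 ± 0.13. Slc16a3, which exports lactate, differed by 0.70 ± 0.11 and 0.90 ± 0.11. Slc16a1, which carries lactate and pyruvate, was called in neither table, at -0.30 ± 0.15 (adjusted p 0.0859) and 0.02 ± 0.15 (adjusted p 0.931). Slc16a6 was higher in labelled-DKO villus at -0.41 ± 0.11, and its span overlaps Arsg. Slc16a4, another gene of that family, was the class's single gene called higher in crypt, at -0.55 ± 0.15. Slc13a1, a sulfate carrier kept here with its family, differed by 0.34 ± 0.11 and 1.04 ± 0.12.

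The Slc22 family holds carriers of organic cations, anions and zwitterions. Between villus and crypt its 7 genes ran from -0.17 for Slc22a23 to 0.26 for Slc22a4. None of the 7 was called by DESeq2, beside 18.6% of all genes called higher in villus and 18.8% in crypt. A count of 0 among 7 genes was not tested against these shares. At an unadjusted p under 0.05 the count was 1, and after centring Slc22a5 was called higher in villus (adjusted p 0.0489). Between the genotypes 2 (28.6%) were higher in WT villus and 2 in labelled-DKO villus, shares near the 22.4% and 29.5% of all genes. Slc22a4, known as a carrier of ergothioneine, had rebuilt means of 305 in WT villus and 197 in labelled-DKO villus, with a deposited difference of 0.64 ± 0.15 (adjusted p 1.03e-04). Slc22a5, the carnitine transporter in the same cluster on chromosome 11, went the other way, from 235 to 378, with -0.68 ± 0.10 (adjusted p 3.86e-10). Slc22a21 lies between them and was not called, at 0.06 ± 0.09. Slc22a23 was higher in labelled-DKO villus at -0.83 ± 0.13. Slc47a1, which extrudes organic cations, differed by 0.65 ± 0.14 between the genotypes, and the serotonin transporter gene Slc6a4 by 0.60 ± 0.14.

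In the metal class 3 of 17 genes (17.6%) were called higher in villus, namely Slc39a4, Slc30a10 and Slc30a2, a share near the 18.6% of all genes. Between the genotypes 6 (35.3%) were higher in WT villus and 3 (17.6%) in labelled-DKO villus, beside 22.4% and 29.5% of all genes. None was called higher in crypt by DESeq2, and 2 were at an unadjusted p under 0.05. Slc30a4 became called there among genes with a mean signal of at least 100 (adjusted p 0.0471). Slc39a4, the apical zinc importer, had rebuilt means of 253 in crypt, 594 in WT villus and 90.4 in labelled-DKO villus. It differed by 1.23 ± 0.20 (adjusted p 1.25e-08) and 2.72 ± 0.21 (adjusted p 1.95e-37), a 6.57-fold lower signal in labelled-DKO villus. Slc30a10, a manganese exporter, had 111, 231 and 56.7, with differences of 1.06 ± 0.12 and 2.03 ± 0.13, and it overlaps the gene Gm2061. Slc30a2, which loads zinc into vesicles, had 112, 178 and 54.7, with differences of 0.67 ± 0.14 and 1.70 ± 0.15. In all 3 genes the rebuilt mean was lowest in labelled-DKO villus, and the step from crypt to labelled-DKO villus has no test in the tables.

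The other 14 metal carriers ran from -0.36 to 0.32 between villus and crypt and from -0.69 to 0.47 between the genotypes. Slc39a5, a zinc importer of the basolateral side, was higher in WT villus between the genotypes at 0.47 ± 0.14 in the authors' deposited table. Slc30a5 and Slc30a6, whose products pair to supply zinc to enzymes of the secretory pathway, were higher in WT villus at 0.23 ± 0.08 and 0.33 ± 0.11. Higher in labelled-DKO villus were Slc30a4, a vesicular zinc carrier, at -0.69 ± 0.14, Slc31a2, a relative of the copper importer, at -0.61 ± 0.09, and Slc39a13, an intracellular zinc carrier, at -0.50 ± 0.11. The copper importer gene Slc31a1 was called in neither table, with rebuilt means of 225, 200.5 and 218, and neither was the zinc exporter gene Slc30a1, at 0.27 ± 0.22 and 0.22 ± 0.21. Slc39a14, an importer of zinc and other metals, was not called either, at 0.32 ± 0.22 and 0.18 ± 0.22. The class median between the genotypes, 0.18, was -0.065 without the genes whose span overlaps another gene, Slc30a10 and Slc30a1.

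**Figure D4:**
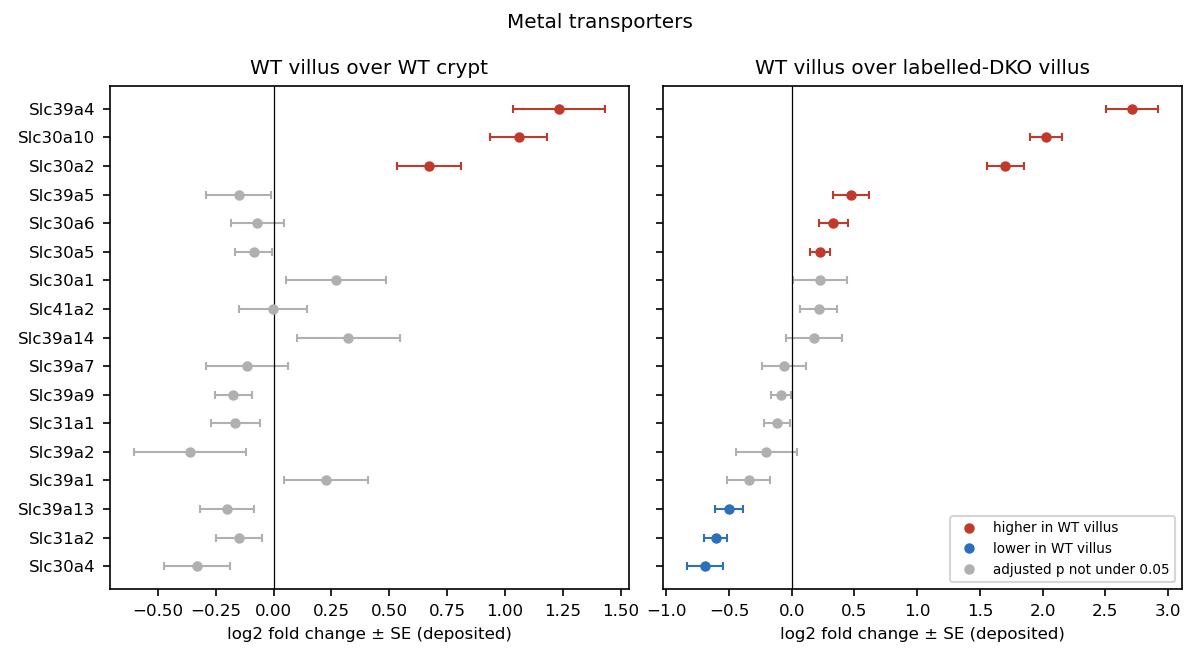
Deposited log2 fold change ± SE of the 17 metal transporter genes, for WT villus over WT crypt (left) and over labelled-DKO villus (right), ordered by the latter; red and blue mark an adjusted p under 0.05. Slc39a4, Slc30a10 and Slc30a2 stand apart from the other 14 genes in both panels.

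Among the mitochondrial carriers 9 of 23 genes were called higher in villus and 1 higher in crypt, and 10 were higher in WT villus and 3 in labelled-DKO villus in the authors' deposited tables. Slc25a5, an ADP/ATP exchanger of the inner membrane, had rebuilt means of 229 in crypt, 611 in WT villus and 205 in labelled-DKO villus, with differences of 1.42 ± 0.21 (adjusted p 3.77e-10) and 1.57 ± 0.21 (adjusted p 7.40e-13). Slc25a45 differed by 1.10 ± 0.22 and 1.82 ± 0.22. Slc25a15, which carries ornithine for the urea cycle, differed little between villus and crypt, at 0.23 ± 0.08 (adjusted p 0.0188), and by 1.26 ± 0.09 (adjusted p 9.01e-47) between the genotypes, with rebuilt means of 267, 313 and 131. Slc25a3, the phosphate carrier, differed by 0.61 ± 0.12 and 0.72 ± 0.12, Slc25a51, the NAD+ carrier, by 0.56 ± 0.12 and 0.72 ± 0.12, and Slc25a22, a glutamate carrier, by 0.77 ± 0.21 and 0.75 ± 0.20.

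The genes of the mitochondrial iron importers went in opposite directions. Slc25a37, which encodes mitoferrin 1, had rebuilt means of 516 in crypt, 684 in WT villus and 327 in labelled-DKO villus, with differences of 0.41 ± 0.09 and 1.07 ± 0.09. Slc25a28, which encodes mitoferrin 2, had 120, 93.1 and 174, with -0.37 ± 0.12 (adjusted p 0.0111) and -0.90 ± 0.12 (adjusted p 7.70e-13). It was the class's single gene called higher in crypt. Between the genotypes Slc25a18, a glutamate carrier gene, at -0.32 ± 0.10, and Slc25a20, the carnitine-acylcarnitine carrier gene, at -0.25 ± 0.08, were also higher in labelled-DKO villus. The call of Slc25a20 was lost after centring, with an adjusted p of 0.0804. The remaining 10 genes were not called between the genotypes and ran from -0.52 for Slc25a25 to 0.10 for Slc25a42.

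**Figure D5:**
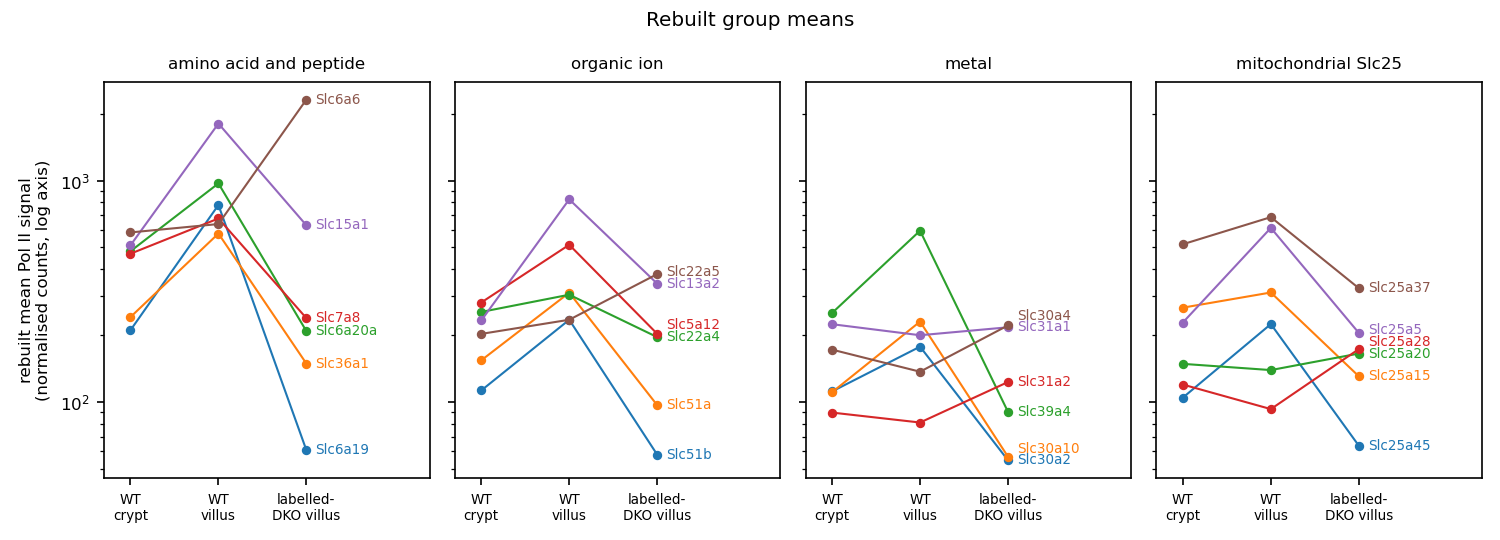
Rebuilt mean Pol II signal (counts divided by size factors, log axis) in WT crypt, WT villus and labelled-DKO villus for 6 genes of each of 4 classes; points are rebuilt group means without error, joined by lines for each gene, and levels are to be read within a gene. Slc6a19 goes from 211 to 775 to 60.7, while Slc6a6, Slc22a5, Slc31a2 and Slc25a28 are among the genes highest in labelled-DKO villus.

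The sugar class without the main glucose and fructose carriers still had 5 of 13 genes higher in villus and, by DESeq2, none higher in crypt, also none at an unadjusted p under 0.05. Between the genotypes 7 were higher in WT villus and 2 in labelled-DKO villus in the authors' deposited table. Slc2a7, an intestinal member of the facilitative hexose carriers, had rebuilt means of 187 in crypt, 608 in WT villus and 95.4 in labelled-DKO villus, with differences of 1.70 ± 0.14 and 2.67 ± 0.15. Slc5a11, a sodium-coupled inositol carrier, differed by 0.52 ± 0.11 and 1.37 ± 0.12. The neighbours Slc5a4a and Slc5a4b on chromosome 10 differed between the genotypes by 1.29 ± 0.11 and 0.51 ± 0.12, and Slc5a4b overlaps Gm16222. Slc2a6, a lysosomal member, was higher in labelled-DKO villus at -0.73 ± 0.20, and the sugar-phosphate carrier gene Slc37a1 at -0.45 ± 0.14.

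Among inorganic ion carriers 4 of 16 genes (25%) were called higher in villus and 1 (6.25%) in crypt, beside 18.6% and 18.8% of all genes. Between the genotypes 2 (12.5%) were higher in WT villus and 4 (25%) in labelled-DKO villus, beside 22.4% and 29.5% of all genes. Slc26a6, an apical anion exchanger, had the largest differences of the class in the authors' deposited tables, 1.34 ± 0.27 and 2.53 ± 0.27, with rebuilt means of 197, 498 and 86.6. Slc26a3, an exchanger of chloride for bicarbonate, was the single gene of the 156 called with opposite signs. Villus exceeded crypt by 0.25 ± 0.07 (adjusted p 0.00215), and labelled-DKO villus exceeded WT villus, at -0.45 ± 0.07 (adjusted p 1.26e-09), with rebuilt means of 364, 434 and 593. Slc26a2, a sulfate carrier, was higher in villus at 0.82 ± 0.10 and was not called between the genotypes, at 0.08 ± 0.09 (adjusted p 0.484). The sodium-proton exchanger gene Slc9a8 was higher in labelled-DKO villus, at -0.36 ± 0.06. Slc9a2 and Slc9a3, which encode apical members, were called in neither table. Slc9a2 differed by 0.06 ± 0.11 and -0.20 ± 0.11. Slc9a3 had wider standard errors, at 0.54 ± 0.35 and -0.13 ± 0.35, so its missing calls do not show that it was unchanged. The phosphate carrier gene Slc34a2 was higher in villus at 1.22 ± 0.45, with the largest standard error of the 156 genes and an adjusted p of 0.0203, and was not called between the genotypes.

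Of the nucleoside and nucleotide sugar carriers 6 of 19 genes (31.6%) were higher in villus and 3 (15.8%) in crypt, beside 18.6% and 18.8% of all genes. Between the genotypes 7 (36.8%) were higher in WT villus and 5 (26.3%) in labelled-DKO villus, beside 22.4% and 29.5% of all genes. Slc28a1, which takes up pyrimidine nucleosides, differed by 1.01 ± 0.12 and 1.88 ± 0.12 in the authors' deposited tables. Slc35b2, which brings the sulfate donor PAPS into the Golgi, was higher in crypt at -0.76 ± 0.17 and higher in labelled-DKO villus at -1.04 ± 0.17. Slc35c1, the Golgi GDP-fucose carrier, was not called between villus and crypt, at -0.21 ± 0.14, and was higher in labelled-DKO villus at -1.20 ± 0.13, with a rebuilt mean of 253 against 110 in WT villus. Its relative Slc35c2 went the other way, at 0.93 ± 0.13 and 1.82 ± 0.13.

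Among carriers of vitamins, lipids and other solutes 7 of 19 genes were higher in villus and 2 higher in crypt, and 10 were higher in WT villus and 2 in labelled-DKO villus. Slc27a4, a fatty acid transport protein of enterocytes, differed by 1.16 ± 0.12 and 1.76 ± 0.12 in the authors' deposited tables, and Slc6a8, the creatine transporter, by 1.75 ± 0.15 in both. Slc46a1, the proton-coupled folate carrier, differed by 1.02 ± 0.17 and 1.04 ± 0.17. The riboflavin carrier genes differed in direction between the genotypes, with Slc52a2 higher in WT villus at 1.10 ± 0.15 and Slc52a3 higher in labelled-DKO villus at -0.69 ± 0.16. The Slc23 family, which holds ascorbate carriers, was placed here as a whole, and this does not show that Slc23a4 carries ascorbate. Slc23a4 and Slc23a1 were higher in WT villus at 0.91 ± 0.10 and 0.36 ± 0.10, the latter overlapping Paip2. Slc23a2 was not called, at -0.07 ± 0.07. Slc44a1, a choline carrier, was higher in labelled-DKO villus at -0.42 ± 0.08. Slc9a3r1, which encodes a scaffold of apical membrane proteins and no carrier, differed by 1.65 ± 0.15 and 2.36 ± 0.15.

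A list of 26 genes, called the partner list, was also read, and 17 of them were in the tables. It holds genes that work with these carriers, but also export pumps, other carriers and transcription factors. Of those 17, 12 (70.6%) were higher in villus in the authors' deposited tables, beside 18.6% of all genes. None was higher in crypt, also none at an unadjusted p under 0.05, where 18.8% of all genes were called. Between the genotypes 15 (88.2%) were higher in WT villus and 1 (5.88%) in labelled-DKO villus, beside 22.4% and 29.5% of all genes. The medians of the 17 genes were 1.04 and 0.84, against -0.04 and -0.08 for all genes. The list shares 2 genes with the enterocyte markers. Pdzk1, a scaffold of apical carriers, differed by 1.12 ± 0.09 and 1.88 ± 0.09. Atp1b1, which encodes a subunit of the sodium pump that maintains the gradient used by sodium-coupled carriers, differed by 1.04 ± 0.17 and 1.44 ± 0.17, and its span overlaps Nme7. The export pump gene Abcc2 differed by 1.67 ± 0.27 and 2.80 ± 0.27. Bsg, whose product accompanies monocarboxylate carriers to the membrane, was not called between villus and crypt, at 0.02 ± 0.12, and was higher in WT villus at 0.33 ± 0.12. The prostaglandin carrier gene Slco2a1 was the one gene of the list higher in labelled-DKO villus, at -0.63 ± 0.24. Mtf1, which encodes the zinc-sensing transcription factor, differed by 0.13 ± 0.07 (adjusted p 0.0961) and 0.23 ± 0.07 (adjusted p 0.00110).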

How the data were processed

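The genome build mm9 and the tools Bowtie2 2.2.6, SAMtools 0.1.19, Picard, featureCounts and DESeq2 1.36.0 are named, per the submitters' processing notes. The deposited tables hold a mean signal (counts divided by size factors, averaged over libraries), a log2 fold change with its standard error, the Wald score, and the raw and adjusted p-value of 6429 genes. The gene filter, the size factors, shrinkage and the window counted are not given in the sources used here. Recomputed Benjamini-Hochberg values differed from the deposited adjusted ones by at most 3.76e-07. Depth per library is unknown: the 18 columns of library counts in the window tables carry no names and were not used. Those tables gave positions only. Their headers record featureCounts 2.0.3, read pairs with mapping quality of at least 30, and no option for strand. Symbols were joined through RefSeq accessions, and 6394 of 6429 genes got a position.

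Substrate classes followed family membership except for genes placed singly, among them Slc6a4, Slc6a8, Slc16a10 and Slc5a12. Of all genes 4 were assigned after the tables were read (Slc6a19os, Slc13a2os, Slc2a4rg-ps and Slc49a4). The members and lists were chosen with earlier results of these data known. Named were, per class and comparison, the 4 called genes with the largest values in each direction, the 2 with the highest mean signal, genes called with opposite signs, and the partner list; others, named to complete a family or pair, were chosen after their values were seen. Some genes that this rule names are not reported here. The planned edgeR tests on library counts were not run. Adjustments recomputed here (Python 3.11.15, SciPy 1.17.1) were tested on simulated data. Alternatives were an adjusted p under 0.01, a log2 limit of 1, centring on the median, a mean signal of at least 100 and no overlapping genes.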

Additional observations from a re-analysis of the deposited data

How the results depend on the processing

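The counts of all 156 genes kept within 1.5 times under an adjusted p under 0.01, centring, a mean signal of at least 100 (123 genes) and leaving out overlapping genes (127 genes). With the limit of 1 on the log2 scale they moved, as fewer genes can pass it, to 23 higher in villus, 0 in crypt, 36 in WT and 3 in labelled-DKO villus. The same limit left 6 amino acid and peptide, 3 organic ion and 2 mitochondrial genes higher in villus and 0 of these classes in crypt. Between the genotypes it left 6 organic ion, 3 metal and 4 mitochondrial genes higher in WT villus. It left 1 amino acid and 0 organic ion, metal or mitochondrial genes higher in labelled-DKO villus. An adjusted p under 0.01 left 1 amino acid and 0 mitochondrial genes higher in crypt. A mean signal of at least 100, which tests 10 metal genes, gave 1 metal gene higher in crypt (Slc30a4) and 1 higher in labelled-DKO villus.

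Between the genotypes the metal median turned to -0.065 without overlapping genes, and the amino acid and peptide median moved to 0.848. A mean signal of at least 100 moved the organic ion median to 0.40 and the mitochondrial median to 0.49. The spelling CAAAGTTCA was found in 0% of the 121 promoters, which allows a share of up to 2.48% by counting alone and so covers the 0.407% among genes of the tables, and AAAGTCC, chosen after seeing the data, in 6.61%. Of the recomputed values for single named genes 688 kept their side of the threshold, 85 became weaker, 65 of them under the limit of 1, and 5 became stronger. Under an adjusted p under 0.01 and under the limit of 1, a gene not called before could only keep its side. The 688 include such values and are no measure of how stable the calls were.

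No paired analysis was possible because the fold changes come without library values and the library count columns have no names. Leaving out each replicate and the other tools were not run for the same reason. The deposited standard errors of these genes, from 0.06 to 0.45, bound what could be called, and depth per library is unknown.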

Other observations

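The deposited gene body windows differ by strand in how they lie to the promoter windows. For none of the 19858 plus-strand transcripts with both windows did the 402 bp promoter window overlap the gene body window. For all 21190 minus-strand transcripts the promoter window lay inside the gene body window. Whether the deposited fold changes rest on either set of windows is not stated, and a part of this in the results was not tested. By strand, 71 of the solute carrier genes lie on the plus and 84 on the minus strand. In the authors' deposited table of the genotypes 32 of the 71 (45.1%) and 39 of the 84 (46.4%) were called higher in WT villus. Higher in labelled-DKO villus were 13 (18.3%) and 14 (16.7%). Over all genes of both strands the shares were 22.4% and 29.5%.

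The solute carriers that overlap another gene numbered 29. Of these 12 (41.4%) were higher in WT villus and 4 (13.8%) in labelled-DKO villus in the authors' deposited table. Of the 127 without an overlap 60 (47.2%) and 23 (18.1%) were. Over all genes without an overlap the shares, with adjusted p recomputed among them, were 23.3% and 28.6%.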
